A study of Oreochromis niloticus with 24 samples.

Results

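A set of 52 genes had similar levels in the LH and the FSH cells of the Nile tilapia pituitary and a higher level in both than in the other cells, in males and in females. The genes were selected on the measured values themselves, as the mean of log2(NR + 1) over the 4 libraries of a group, where NR is the normalized read count of a gene in a library. A gene had to be more than 1 log2 unit higher in LH than in Negative cells, more than 1 log2 unit higher in FSH than in Negative cells, and less than 1 log2 unit apart between LH and FSH cells, all of this in each sex. Of the 1309 genes listed for both sexes, 56 met these limits. A list of 10 genes was left out by name, of which apln, gjd2, rfx1 and dclk3 were among the 56, and the 52 others are described here. Since the limits fixed the differences between fractions within a sex, those differences are given as a description with their standard errors (SE) and no test, and tests were made only between the sexes.

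The samples were 24 RNA-seq libraries of cells from sexually mature Nile tilapia (Oreochromis niloticus) of the Lake Manzala strain. The fish carried 2 transgenes, RFP driven by the LH promoter (LH:RFP) and GFP driven by the FSH promoter (FSH:GFP), and the Negative cells came from the same fish. Pituitaries of males or of females were pooled, digested with trypsin and sorted by fluorescence into an LH fraction (RFP positive), an FSH fraction (GFP positive) and a Negative fraction with neither colour, 4 times for each sex, which gave 6 groups of 4 libraries. The Negative fraction is thus a mixture of every pituitary cell without visible reporter, so a lower level there can mean fewer cells with the transcript or less transcript per cell, and these cannot be told apart. Cells with both colours were collected apart. The authors took them as probable doublets of LH and FSH cells and left them out of their analysis. Male and female libraries were scaled separately by the authors, so levels are compared within a sex, and only differences are compared between the sexes. The values below are given in the order of the replicate numbers 1 to 4 in the labels, which are taken as sorts 1 to 4.

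As background, gonadotrophs are the endocrine cells of the anterior pituitary that secrete the gonadotropins. In mammals a single cell type makes both hormones, whereas in teleost fish LH and FSH are made by separate cells that share the common alpha subunit (cga) and differ in the beta subunit (lhb or fshb). Secretion follows hypothalamic signals, above all gonadotropin-releasing hormone, which acts through G protein coupled receptors, intracellular calcium and the fusion of hormone granules with the plasma membrane, and dopamine inhibits it in many fishes. Genes held in common by both cell types can therefore include channels, receptors, regulators of exocytosis and transcription factors of the lineage.

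The beta subunits checked the sorting of LH from FSH cells, but not the share of other cells in a fraction. In the male libraries fshb averaged 194 NR in LH cells, which was 0.398% of its FSH level, and lhb averaged 20.3 NR in FSH cells, which was 0.359% of its LH level. The same shares in the female libraries were 0.109% for fshb and 0.956% for lhb. The shared subunit cga averaged 11780 NR in LH, 46540 NR in FSH and 2194 NR in Negative cells of males. In females it averaged 2649 NR in LH, 26138 NR in FSH and 1967 NR in Negative cells, so female LH and Negative cells lay close. Each selected gene, by its selection, differed by less than 1 log2 unit between the LH and FSH fractions. None of the fixed marker lists of other cell types (macrophage, endothelial, vessel wall, glial, red blood cell, dividing and other hormone cells) held a selected gene. Of all these markers only esamb and dcn were listed for both sexes, so nearly none could have been selected. In males the vessel wall marker dcn held 16.3 to 66.01 NR in LH and 19.2 to 46.8 NR in FSH libraries. Its male Negative libraries held 0 to 5.27 NR. In females dcn held 0 to 8.01 NR in LH and 2.40 to 31.7 NR in FSH libraries. Its female Negative libraries held 0 to 1.75 NR. For the listed endothelial markers the gonadotroph and Negative ranges overlapped in both sexes. The part of other cells in the dcn values was not tested. No red blood cell, dividing or other hormone marker was listed for either sex. The absence of these markers from the set therefore says little about other cells in the fractions. In females 6 of 12 macrophage markers were listed, with a summed level of 5588 to 12987 NR in LH libraries and 669 to 1315 NR in FSH libraries, against 2709 to 4439 NR in Negative libraries. In males 0 of 12 were listed, which says only that they did not pass the authors' selection of genes. The part of the macrophage markers in the female LH values was not tested. The libraries held 69091 to 2004647 reads on listed genes, with the fewest in the female Negative libraries (69091 to 135385 reads), where 3 reads corresponded to 2.74 to 5.25 NR.

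Across the 52 genes, the difference between LH and Negative cells ranged between 1.08 and 3.77 log2 units in males, with a median of 2.02, and between 1.01 and 3.63 in females, with a median of 1.24. The difference between FSH and Negative cells had a median of 2.06 in males and 1.71 in females. Over all 1309 genes the medians were 1.08 (LH, males), 0.45 (LH, females), 1.77 (FSH, males) and 1.46 (FSH, females). The smallest of a gene's 4 differences was that of the female LH cells for 37 of the 52 genes. All 4 differences were above 2 for 7 genes, namely hnf4a, inab and the unnamed genes LOC100691547, LOC102076401, LOC100692589, LOC100711672 and LOC100691891. The mean NR in Negative cells was 4.43% to 54.3% of the mean NR in a gonadotroph fraction of the same sex, with a median of 29.5%. These are ratios of mean NR and not of the log2 means used for the limits, so the limits do not bound them exactly. The lowest was that of hnf4a in females, whose Negative libraries held only 1 to 3 reads.

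**Figure D1:**
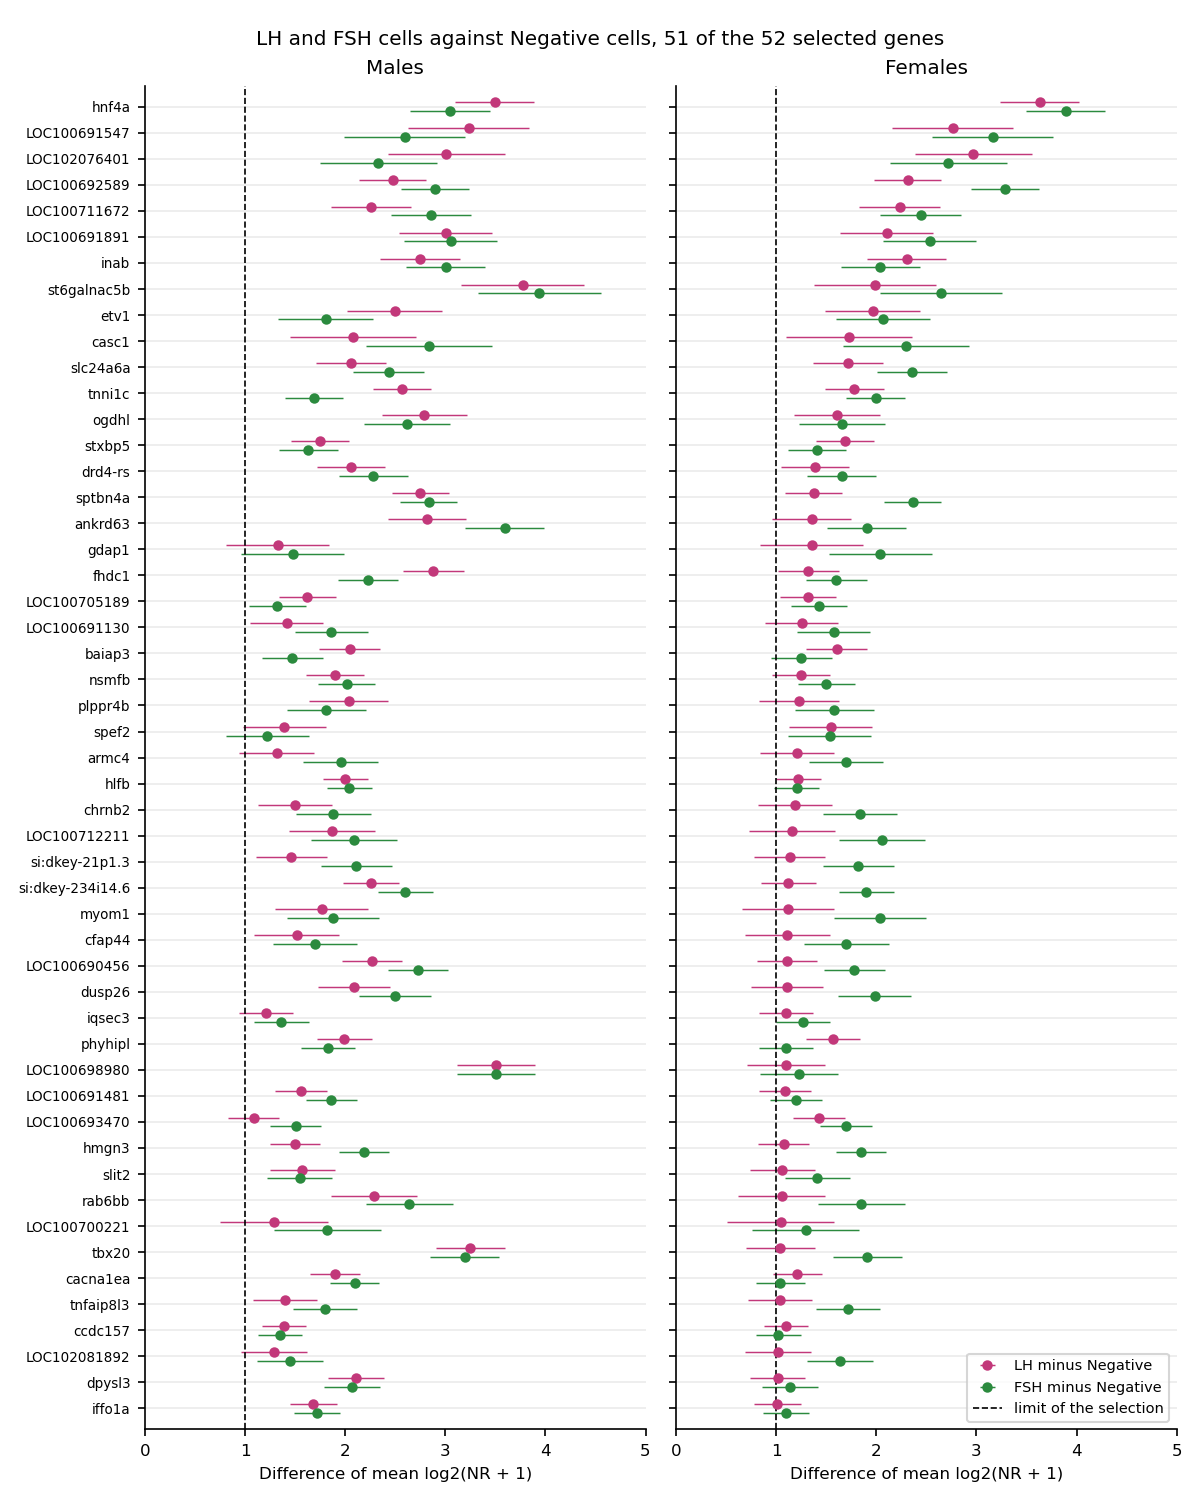
Difference of mean log2(NR + 1) between LH cells (magenta) or FSH cells (green) and Negative cells for 51 of the 52 genes, in males (left) and females (right), ordered by the smallest of the 4 differences; bars are ± 1 SE from the fit over all 24 libraries (4 libraries a group), and the dashed line is the limit of 1 that selected the genes. Over the 52 genes the median LH difference is 2.02 in males and 1.24 in females, and many female LH points lie close to the line.

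The libraries themselves separated the groups to different degrees. All 4 male LH libraries lay above all 4 male Negative libraries for 50 of the 52 genes, where 56.4% of the 1309 genes did so, and all male FSH libraries lay above the Negative ones for 48 genes (background 81.4%). In females the same held for LH libraries in 38 genes (background 27.4%) and for FSH libraries in 49 genes (background 79.4%). All 4 comparisons were free of overlap for 34 genes, against 13.7% of the 1309 genes. Within sorts, 47 of the 52 genes were higher in the gonadotroph fraction in all 16 comparisons with the Negative fraction of the same sort number, where 24.4% of the 1309 genes were, and no gene of the set was higher in fewer than 14. These shares repeat the contrasts that selected the genes and are no separate evidence.

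The set held 5 regulators of transcription or chromatin. Hnf4a encodes a nuclear receptor known from liver, gut and pancreas, and the smallest of its 4 differences from Negative cells was the largest in the set. Male libraries of hnf4a held 121, 63.2, 53.1 and 65.2 NR in LH cells and 34.6, 62.4, 68.8 and 50.4 NR in FSH cells, against 5.36, 3.02, 11.4 and 4.49 NR in Negative cells. Female libraries held 49.5, 38.0, 34.6 and 38.7 NR in LH cells and 101, 55.7, 26.4 and 35.3 NR in FSH cells, against 2.74, 3.501, 2.35 and 1.099 NR in Negative cells. No gonadotroph library overlapped a Negative library in either sex, and the log2 differences were 3.49 ± 0.40 for LH and 3.05 ± 0.40 for FSH cells in males (SE, n = 4 libraries a group). Female Negative libraries held only 1 to 3 reads of hnf4a, at or under the detection floor of 3 reads per library, so the female level was at least 10.9-fold higher in LH and at least 14.8-fold higher in FSH cells than that floor. Etv1, an ETS transcription factor, was detected at low counts, with 21.1, 13.1, 12.8 and 30.3 NR in LH cells and 37.9, 16.3, 14.4 and 16.3 NR in FSH cells, against 2.74, 3.501, 7.06 and 3.30 NR in Negative cells in females. Its 4 differences lay between 1.81 and 2.49, and all LH and FSH libraries of each sex lay above the Negative ones except one male FSH library, at 9.59 NR, against a highest male Negative library of 12.9 NR.

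Tbx20, a T-box factor known for its part in heart development, had a sex difference that passed in the main fit but not in every alternative. It is described with the sexes below. Hlfb belongs to the PAR bZIP factors, which include circadian output regulators. Male libraries of hlfb held 521, 699, 434 and 568 NR in LH cells and 543, 761, 611 and 399 NR in FSH cells, against 131, 173, 119 and 128 NR in Negative cells. Female libraries of hlfb held 230.1, 294, 191 and 203 NR in LH cells and 258, 235, 192 and 216 NR in FSH cells, against 129.7, 66.5, 106 and 95.6 NR in Negative cells. The levels in the LH and FSH fractions were interleaved in both sexes and lay above every Negative library, with differences of 1.203 to 2.04. Hmgn3, a nucleosome binding protein, differed from Negative cells by 1.07 to 2.19 and was higher in all FSH than in all LH libraries of both sexes, as given below. Of the 42 transcription regulators in the fixed list that were measured in both sexes, hnf4a, hlfb and tbx20 were in the set (etv1 and hmgn3 were not on that list), and 10 of the 42 were more than 1 log2 unit above Negative cells in both fractions of both sexes without regard to balance (9.09% of the 1309 genes were).

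Among ion channels, cacna1ea encodes the pore subunit of an R-type voltage-gated calcium channel and had the highest read counts of the set (NR are not divided by transcript length, so they are not compared between genes as levels). Males held 1924, 2393, 2351 and 2350.2 NR in LH cells and 2233, 2456, 2455 and 3281 NR in FSH cells, against 590.2, 861, 426 and 608 NR in Negative cells. Females held 1168, 2611, 1481 and 2039 NR in LH cells and 1247, 1464, 1715 and 1834 NR in FSH cells, against 792, 499, 985 and 823 NR in Negative cells. Every gonadotroph library was above every Negative library of its sex, and the LH and FSH values overlapped, with LH minus FSH of -0.20 ± 0.25 in males and 0.17 ± 0.25 in females. Chrnb2, a subunit of neuronal nicotinic acetylcholine receptors, had lower counts. It had 67.6, 47.8, 29.2 and 52.7 NR in LH cells and 56.2, 66.5, 62.7 and 62.4 NR in FSH cells, against 25.7, 21.1, 6.15 and 19.1 NR in Negative cells in males. Female libraries of chrnb2 held 13.8, 18.4, 20.0 and 15.1 NR in LH cells and 25.3, 31.3, 21.6 and 29.9 NR in FSH cells, against 5.48, 3.501, 11.8 and 8.79 NR in Negative cells. Each gonadotroph library of chrnb2 lay above each Negative library of its sex. The fixed list of ion channels had 39 genes measured in both sexes, of which 22 were more than 1 log2 unit above Negative cells in both fractions of males, where 41% of the 1309 genes were, and 3 in both fractions of females (background 11.1%). These 3 were cacna1ea, chrnb2 and LOC100700221, and the last of them, which the name pattern of the list took in, is named as a metabotropic receptor of the G protein coupled class and not as a channel.

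**Figure D2:**
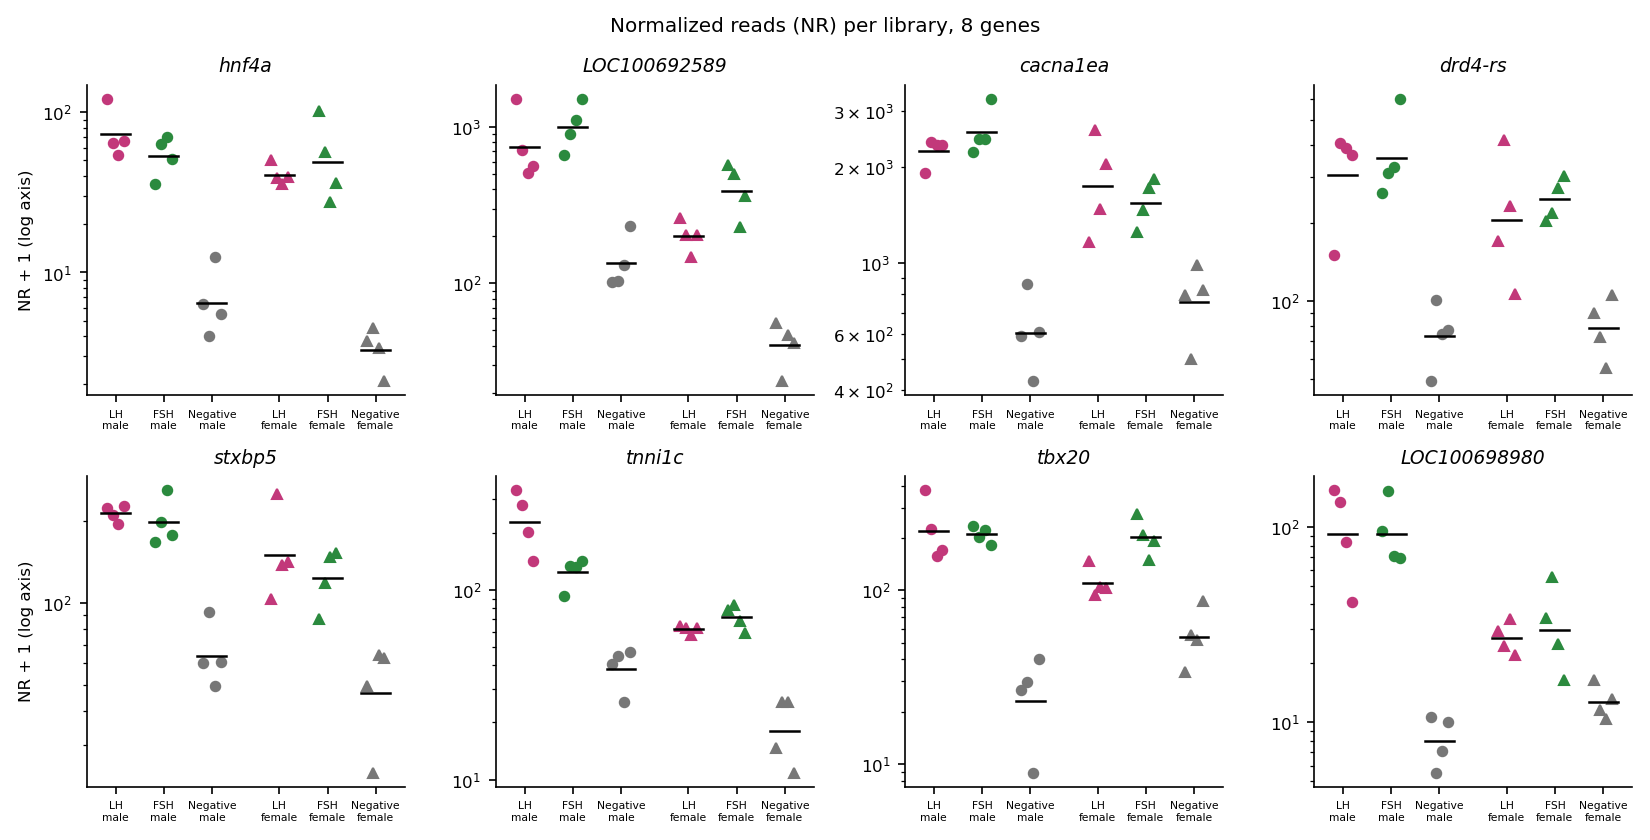
NR + 1 (log axis) of 8 genes in each library, by fraction (magenta LH, green FSH, grey Negative) and sex (circles male, triangles female); horizontal lines are the mean of log2(NR + 1) of 4 libraries. Male and female libraries were scaled separately, so heights are to be compared within a sex only; for males in each panel all LH and FSH points lie above all Negative points.

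The set held 3 receptors of the G protein coupled class. Drd4-rs is a dopamine receptor of the D4 type, and D2-like receptors, to which D4 belongs, lower cyclic AMP. Male libraries of drd4-rs held 149.6, 404, 386 and 364 NR in LH cells and 259, 310.2, 327 and 601 NR in FSH cells, against 48.2, 99.5, 73.8 and 76.3 NR in Negative cells. Female libraries of drd4-rs held 169.6, 416, 231 and 106 NR in LH cells and 202, 218, 271 and 303 NR in FSH cells, against 88.6, 71.8, 54.1 and 104 NR in Negative cells. The LH and FSH libraries overlapped each other in both sexes but not the Negative libraries of their sex, although the lowest female LH library was only just above the highest Negative library, and the differences from Negative cells lay between 1.39 and 2.28. LOC100712211, named as a group 5 member C receptor of family C, averaged 41.0 NR in LH and 48.2 NR in FSH cells of males. In females it averaged 9.25 NR in LH and 20.0 NR in FSH cells. Its female LH libraries held 11, 8, 6 and 9 reads and its female Negative libraries 3, 3, 2 and 4, close to the floor of 3 reads. LOC100700221, named as metabotropic glutamate receptor 4, averaged 19.0 NR in LH and 29.5 NR in FSH cells of males, and 12.1 and 14.9 NR in females. For LOC100700221 the fractions overlapped in both sexes: the male libraries held 9.65, 29.5, 15.6 and 21.3 NR in LH cells and 16.8, 15.1, 33.2 and 52.8 NR in FSH cells, against 16.1, 1.51, 7.91 and 7.85 NR in Negative cells. The study itself classed LOC100700221 as enriched in FSH cells in both sexes. It classed LOC100712211 as enriched in FSH cells in females and in both cell types in males. Of the 30 receptors on the fixed list measured in both sexes, 9 were above the limit in both fractions of males (background 41%), 4 in both fractions of females (background 11.1%) and 3 in both sexes (background 9.09%).

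Several genes of the set act in exocytosis, membrane traffic or at synapses. Stxbp5 (tomosyn) binds syntaxin and restrains the assembly of SNARE complexes, and baiap3 is a Munc13-related protein known from dense-core vesicle cycling in neuroendocrine cells. Stxbp5 had 222, 209, 195 and 227 NR in LH cells and 167, 198, 259 and 176 NR in FSH cells, against 58.9, 92.0, 48.3 and 59.5 NR in Negative cells in males. Its female values were 103, 252, 137 and 140.4 NR in LH cells and 86.4, 117, 147 and 151 NR in FSH cells, against 48.4, 22.8, 63.5 and 61.5 NR in Negative cells. The gonadotroph libraries were above the Negative libraries throughout, with differences in a narrow range between 1.40 and 1.74. Baiap3 had 658, 323, 310.3 and 222 NR in LH cells and 365, 254, 171 and 187 NR in FSH cells, against 125, 98.0, 49.2 and 80.8 NR in Negative cells in males. Female libraries of baiap3 held 116, 194, 111 and 172 NR in LH cells and 117, 131, 106 and 99.6 NR in FSH cells, against 32.9, 54.3, 54.1 and 49.4 NR in Negative cells. It was one of 9 genes with a higher mean in LH than in FSH cells of females, the other sex giving the same sign, and the LH and FSH libraries overlapped in each sex.

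Nsmfb belongs to the NSMF genes, which in humans have been linked to hypogonadotropic hypogonadism. It had 86.9, 64.6, 99.96 and 96.6 NR in LH cells and 64.6, 111, 108 and 97.1 NR in FSH cells, against 16.1, 19.6, 21.1 and 37.0 NR in Negative cells in males. Female libraries of nsmfb held 49.5, 55.1, 61.9 and 61.4 NR in LH cells and 63.2, 58.0, 76.9 and 75.2 NR in FSH cells, against 14.6, 31.5, 34.1 and 18.7 NR in Negative cells. The LH and FSH values overlapped in both sexes, and neither overlapped the Negative libraries. Rab6bb, a Golgi-associated small GTPase, differed from Negative cells by 1.05 to 2.64. Iqsec3, an exchange factor for ARF GTPases known from inhibitory synapses, differed by 1.098 to 1.36. For both rab6bb and iqsec3 the female LH libraries overlapped the female Negative libraries. The fixed list of secretory granule and exocytosis genes had 50 members measured in both sexes. Of these, 31 exceeded the limit in both fractions of males (background 41%) and 4 in both fractions of females (background 11.1%). Stxbp5 was the one in the set, to which 3.97% of the 1309 genes belong (baiap3 was not on that list).

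Cytoskeletal genes made up a further group of 5. Inab, a neuronal intermediate filament protein, had 103, 77.2, 66.6 and 59.0 NR in LH cells and 135, 63.7, 70.0 and 107 NR in FSH cells, against 17.1, 9.05, 10.5 and 6.73 NR in Negative cells in males. Its female libraries held 31.3, 43.3, 31.0 and 27.7 NR in LH cells and 41.4, 27.9, 21.6 and 21.7 NR in FSH cells, against 11.9, 1.75, 10.6 and 4.39 NR in Negative cells. All gonadotroph libraries exceeded all Negative libraries. Sptbn4a, the beta-IV spectrin that in mammals anchors channels at the axon initial segment, had 239.6, 169, 122 and 100.4 NR in LH cells and 155, 155, 140.0 and 185 NR in FSH cells, against 25.7, 18.1, 26.4 and 16.8 NR in Negative cells in males. Female libraries of sptbn4a held 43.7, 65.6, 60.1 and 36.1 NR in LH cells and 115, 91.7, 106 and 90.5 NR in FSH cells, against 11.9, 17.5, 21.2 and 27.5 NR in Negative cells. In females the FSH libraries were all above the LH libraries, which were all above the Negative ones. Iffo1a, an intermediate filament family member, differed from Negative cells by 1.01 to 1.72. Dpysl3 (CRMP4), a regulator of growth cones, differed by 1.01 to 2.11, and the formin fhdc1 by 1.32 to 2.88. All 5 separated the gonadotroph from the Negative libraries in both sexes, as did 34 of the 52 genes and 13.7% of the 1309 genes. Such separation repeats the contrasts that selected the genes and is not read as a trait of this group.

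A group of 4 genes, spef2, armc4, cfap44 and casc1, encode parts of the motile cilium or flagellum: spef2 a central pair protein, armc4 a docking factor of outer dynein arms, and cfap44 and casc1 axonemal proteins. Spef2 had 143, 67.4, 56.2 and 65.2 NR in LH cells and 135, 81.2, 38.1 and 52.8 NR in FSH cells, against 62.1, 21.1, 19.3 and 26.9 NR in Negative cells in males. Its female libraries held 54.6, 32.8, 41.9 and 58.0 NR in LH cells and 33.7, 38.3, 69.7 and 47.1 NR in FSH cells, against 13.7, 21.0, 25.9 and 6.59 NR in Negative cells. The female LH and FSH libraries overlapped each other but not the Negative ones, whereas in males one Negative library, at 62.1 NR, was higher than several gonadotroph libraries. Casc1 had 53.1, 26.7, 12.5 and 13.8 NR in LH cells and 51.5, 47.3, 29.5 and 31.2 NR in FSH cells, against 9.64, 0, 7.03 and 10.1 NR in Negative cells in males. Female libraries of casc1 held 8.74, 11.8, 16.4 and 12.6 NR in LH cells and 14.8, 17.4, 31.2 and 14.5 NR in FSH cells, against 4.57, 0, 9.41 and 3.30 NR in Negative cells. These are few reads, with one library at 0 in each Negative group. Among these, only armc4 separated all gonadotroph from all Negative libraries in both sexes, and none was kept in every leave-out described below. This grouping was made after the members were known.

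Among the 52 were also 2 genes named for muscle proteins, tnni1c (a troponin I) and myom1 (myomesin). Tnni1c had 335, 279, 201 and 142 NR in LH cells and 91.7, 133, 131 and 141 NR in FSH cells, against 39.6, 43.7, 24.6 and 46.0 NR in Negative cells in males. It had 63.3, 61.6, 56.5 and 62.2 NR in LH cells and 77.3, 82.4, 67.3 and 57.9 NR in FSH cells, against 13.7, 24.5, 24.7 and 9.89 NR in Negative cells in females. It was the one gene of the set with all male LH libraries above all male FSH libraries, and in females the order of the means was the opposite. Myom1 differed from Negative cells by 1.12 to 2.03, and its female LH and Negative libraries overlapped.

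Mitochondrial proteins are encoded by 3 of the genes. Slc24a6a, a sodium-calcium exchanger of the SLC24A6 type that moves calcium out of the mitochondrial matrix, had 93.3, 63.2, 72.9 and 57.7 NR in LH cells and 100.2, 81.6, 86.0 and 102 NR in FSH cells, against 24.6, 18.1, 11.4 and 13.5 NR in Negative cells in males. Female libraries of slc24a6a held 34.2, 31.5, 40.1 and 49.6 NR in LH cells and 75.9, 43.0, 69.7 and 57.9 NR in FSH cells, against 14.6, 3.501, 21.2 and 12.1 NR in Negative cells. No gonadotroph library overlapped a Negative one. Ogdhl, a paralogue of the oxoglutarate dehydrogenase subunit, differed by 1.61 to 2.79, and gdap1, a protein of the mitochondrial outer membrane mutated in a human neuropathy, by 1.32 to 2.04. The female LH libraries of gdap1 overlapped its female Negative libraries, which held 9, 0, 12 and 4 reads.

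Slit2, a secreted guidance cue for Robo receptors, is known for steering axons. Male libraries of slit2 held 785, 763, 486 and 336 NR in LH cells and 503, 722, 640.0 and 389 NR in FSH cells, against 311, 219, 101 and 179 NR in Negative cells. Female libraries of slit2 held 290.5, 171, 149 and 257 NR in LH cells and 278, 362, 264 and 189 NR in FSH cells, against 85.9, 92.8, 173 and 71.4 NR in Negative cells. In females one Negative library, at 173 NR, was above the LH libraries of sorts 2 and 3. St6galnac5b, a sialyltransferase that acts on gangliosides, had the largest male differences of the set, 3.77 ± 0.61 for LH and 3.94 ± 0.61 for FSH cells, from 203, 98.3, 57.3 and 30.1 NR in LH cells and 140.4, 138, 82.3 and 34.8 NR in FSH cells, against 11.8, 10.6, 6.15 and 0 NR in Negative cells. The spread between sorts was wide, with the highest male LH library several times the lowest. The male Negative library of sort 4 held 0 reads of st6galnac5b. The SD of log2(NR + 1) over its male Negative libraries was 1.71, the widest of the set in that group. The size of both male differences, and their rank in the set, therefore depend on that library. Plppr4b, a membrane protein related to lipid phosphatases, differed by 1.23 to 2.03.

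The remaining named genes were the phosphatase dusp26, the lipid transfer protein tnfaip8l3, ankrd63, phyhipl and ccdc157. Ankrd63 was variable in males, with 613, 494, 388 and 547 NR in LH cells and 417, 725, 724 and 2522 NR in FSH cells, against 38.6, 61.8, 59.7 and 173 NR in Negative cells. One male FSH library, of sort 4, stood far above the other 3. Phyhipl had 132, 298, 120.3 and 144 NR in LH cells and 131, 113, 108 and 115 NR in FSH cells, against 74.0, 40.3, 35.3 and 80.2 NR in Negative cells in females, where it had the largest excess of LH over FSH in the set, 0.47 ± 0.27, with overlapping libraries. Dusp26 is described with the LH and FSH comparison. Tnfaip8l3 differed from Negative cells by 1.04 to 1.80 and ccdc157 by 1.02 to 1.39. The female LH and Negative libraries of tnfaip8l3 overlapped.

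No informative name was found in the annotation for 14 of the 52 genes. LOC100692589 had high counts. Its male libraries held 1502, 709, 507 and 565 NR in LH cells and 659, 895, 1107 and 1514 NR in FSH cells, against 102, 103, 130.0 and 231 NR in Negative cells. Its female libraries held 259, 203, 146 and 202 NR in LH cells and 566, 496, 228 and 360.4 NR in FSH cells, against 54.8, 22.8, 45.9 and 40.7 NR in Negative cells. No group overlapped Negative cells. LOC100711672 and LOC100691891 differed from Negative cells by 2.23 to 2.86 and 2.10 to 3.05. The female LH and Negative libraries of LOC100691891 overlapped. LOC100691547 and LOC102076401 had few reads. LOC100691547 had 16.02, 9.18, 16.4 and 10.9 NR in LH cells and 14.8, 22.1, 4.80 and 50.7 NR in FSH cells, against 2.74, 0, 3.53 and 0 NR in Negative cells in females. Its female Negative libraries held at most 3 reads, so the level was at least 3.54-fold higher in LH and at least 6.23-fold higher in FSH cells than the floor of 3 reads per library. The FSH bound was 3.74-fold without the library of sort 4, and the FSH library of sort 3 held 2 reads, itself under that floor. LOC102076401 had 19.3, 29.5, 32.3 and 67.8 NR in LH cells and 24.3, 6.53, 23.3 and 45.6 NR in FSH cells, against 2.14, 1.51, 8.78 and 3.37 NR in Negative cells in males, where one FSH library, at 6.53 NR, was below the highest Negative library. The other 9 were LOC100690456, LOC100698980, LOC100705189, LOC100691130, LOC100691481, LOC100693470, LOC102081892, si:dkey-21p1.3 and si:dkey-234i14.6, with differences from Negative cells between 1.02 and 3.51.

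Between LH and FSH cells the set was balanced by selection, but not evenly. The mean was higher in FSH cells for 35 of the 52 genes in males and 43 in females, where 81.8% and 83.3% of the 1309 genes were. The median of LH minus FSH was -0.16 in males and -0.30 in females, against -0.79 and -1.12 over all genes. In males all FSH libraries exceeded all LH libraries for dusp26, hmgn3 and si:dkey-21p1.3 (3 of 52, background 50.2%), and the reverse held for tnni1c (1 of 52, background 12.5%). In females all FSH libraries exceeded all LH libraries for dusp26, hmgn3, chrnb2, tbx20, myom1, sptbn4a, si:dkey-234i14.6 and LOC102081892 (8 of 52, background 66.2%), and no gene showed the reverse (background 12.8%). Both directions are limited by the selection and are read here as a description.

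Dusp26 and hmgn3 were thus on the FSH side in both sexes. Dusp26 had 67.6, 68.8, 76.02 and 85.3 NR in LH cells and 89.9, 102, 102 and 103 NR in FSH cells, against 25.7, 13.6, 12.3 and 17.9 NR in Negative cells in males. Its female libraries held 32.8, 40.7, 18.2 and 52.1 NR in LH cells and 54.1, 81.3, 55.2 and 63.4 NR in FSH cells, against 30.1, 5.25, 17.6 and 17.6 NR in Negative cells. LH minus FSH was -0.41 ± 0.36 in males and -0.88 ± 0.36 in females. Hmgn3 had 158, 118, 125 and 105 NR in LH cells and 162, 224, 228 and 203 NR in FSH cells, against 51.4, 46.7, 33.4 and 44.9 NR in Negative cells in males. Female libraries of hmgn3 held 50.2, 63.0, 45.5 and 57.2 NR in LH cells and 105, 72.0, 91.3 and 105 NR in FSH cells, against 39.3, 17.5, 18.8 and 29.7 NR in Negative cells. In both genes the order of the fractions was FSH, LH and Negative from high to low, apart from an overlap of the LH and Negative libraries of dusp26 in females.

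**Figure D3:**
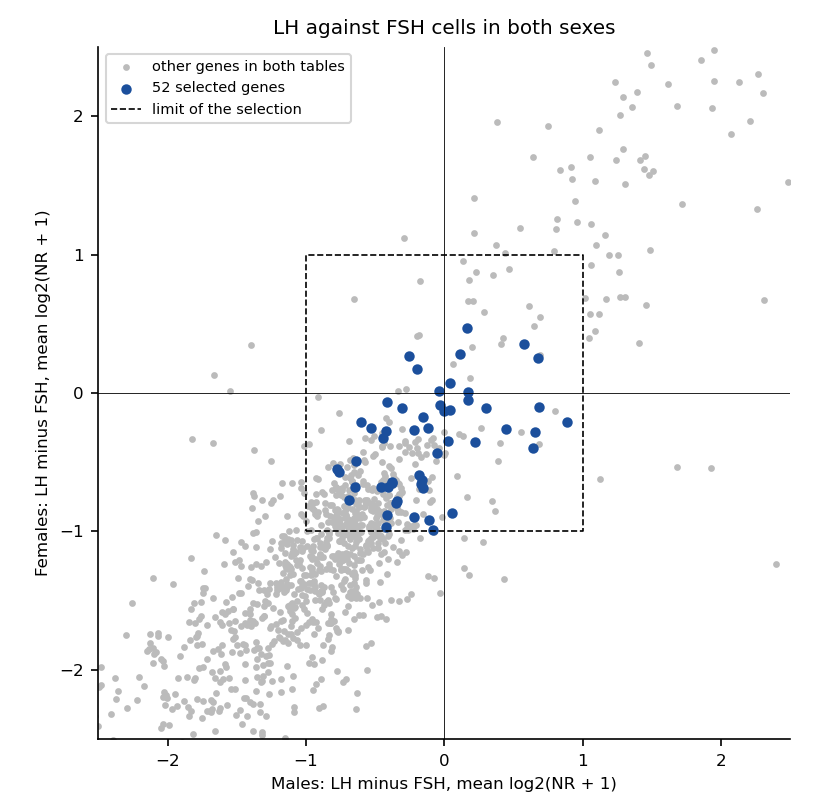
LH minus FSH (difference of mean log2(NR + 1), 4 libraries a group) in males (horizontal) and females (vertical) for the 52 genes (blue) and the other genes in both tables (grey); 283 genes beyond 2.5 log2 units on either axis are not drawn, and the dashed square is the limit that selected the genes. Most blue points lie in the lower part of the square, with a female median of -0.30.

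The sexes were then compared. The limits required each difference from Negative cells to exceed 1 in both sexes but did not set in which sex it was larger. They still left out genes with a small difference in 1 sex, so the sex differences of the set are not free of the selection. For each gene the difference between 2 fractions in females was subtracted from the same difference in males, on log2(NR + 1) with limma over all 24 libraries, and p-values were adjusted (Benjamini-Hochberg) over all 1309 genes. For LH minus Negative, 4 of the 52 genes were higher in males at an adjusted p below 0.05 and 0 were lower, against 12.5% higher and 0.306% lower of the 1309 genes. The share of the set was thus no larger than that of all genes, but the limits bear on it. Of the 317 genes that met the limits in males only, 271 had a female LH minus Negative difference of 1 or less. Among the fixed lists, 14 of 50 secretory granule genes, 9 of 42 transcription regulators, 8 of 39 ion channels and 3 of 30 G protein coupled receptors were higher in males in this contrast (12.5% of the 1309 genes were). The other lists had 8 of 36 cytoskeleton, 5 of 46 second messenger, 5 of 45 adhesion, 4 of 33 transporter and 4 of 19 secreted peptide genes. In each list 0 were lower. The median sex difference of the set was 0.46, close to 0.53 over all genes, and 48 of the 52 were higher in males, where 83.7% of all genes were. At an unadjusted p below 0.05 the main limma fit had 11 of the 52, against 28.9% of the 1309 genes. After each contrast was centred on the median of all genes, no gene of the set passed in limma (0 of 52, against 0.84% of the 1309 genes). By edgeR on recovered reads without centring the count was 6 (background 11.8%). With the sort as a block the count was 9 (background 18.6%), which added dpysl3, LOC100690456, si:dkey-234i14.6, ankrd63 and st6galnac5b. Without sort 3 of both sexes it was 0 (background 0.611%). The female LH libraries of this contrast are those with the high sum of macrophage markers given above, whose part in the sex difference was not tested.

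The 4 genes were tbx20, LOC100698980, fhdc1 and sptbn4a. Male libraries of tbx20 held 378, 226, 157 and 169 NR in LH cells and 235, 203, 224 and 182 NR in FSH cells, against 25.7, 28.6, 7.91 and 39.3 NR in Negative cells. Female libraries of tbx20 held 146, 93.1, 104 and 103 NR in LH cells and 275, 209, 149 and 192 NR in FSH cells, against 32.9, 54.3, 50.6 and 85.7 NR in Negative cells. LH minus Negative was 3.25 ± 0.34 in males and 1.04 ± 0.34 in females, a sex difference of 2.21 ± 0.49 (SE, limma adjusted p = 0.00723), or 1.68 after centring (adjusted p = 0.109). The male Negative libraries of tbx20 were low relative to the male gonadotroph libraries, and in females the LH libraries lay between the FSH and the Negative libraries.

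LOC100698980 had 153, 132, 82.3 and 40.2 NR in LH cells and 93.6, 151, 70.0 and 68.3 NR in FSH cells, against 9.64, 4.52, 6.15 and 8.97 NR in Negative cells in males. Its female libraries held 28.4, 23.6, 32.8 and 21.0 NR in LH cells and 33.0, 54.6, 24.0 and 15.4 NR in FSH cells, against 15.5, 10.5, 9.41 and 12.1 NR in Negative cells. Gonadotroph and Negative libraries overlapped only in one female FSH library, and the distance was larger in males, with a sex difference of 2.41 ± 0.55 for LH minus Negative (limma adjusted p = 0.00752, and 0.109 after centring). It was also the only one of the 52 for which the main limma fit called a sex difference in FSH minus Negative, 2.28 ± 0.55 (limma adjusted p = 0.0239, and 0.11 after centring). Fhdc1, a formin, had 407, 315, 172 and 217 NR in LH cells and 104, 206, 165 and 221 NR in FSH cells, against 26.8, 30.2, 32.5 and 56.1 NR in Negative cells in males. Female libraries of fhdc1 held 63.3, 97.1, 45.5 and 63.9 NR in LH cells and 61.1, 94.0, 88.9 and 77.0 NR in FSH cells, against 17.4, 29.8, 30.6 and 26.4 NR in Negative cells. All gonadotroph libraries lay above the Negative ones, and fhdc1 had a sex difference of 1.56 ± 0.43 for LH minus Negative (limma adjusted p = 0.0193, and 0.347 after centring). Sptbn4a, with the values given above, had a sex difference of 1.38 ± 0.40 (limma adjusted p = 0.0254, and 0.445 after centring). The next smallest p was that of si:dkey-234i14.6, at 1.14 ± 0.39 (limma adjusted p = 0.051).

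For FSH minus Negative, LOC100698980 made up the count of 1 gene higher in males, against 1.15% of the 1309 genes, and 0 were lower, against 0.229%. The median of the set was 0.33, against 0.29 over all genes. With the sort as a block 2 genes passed, LOC100698980 and ankrd63 (background 3.06%), and without any one sort none did. By edgeR on recovered reads the count was 0 (background 1.22%), with 10 at an unadjusted p below 0.05. Below the threshold followed cacna1ea (1.06 ± 0.35, limma adjusted p = 0.114), ankrd63 (1.69 ± 0.56, limma adjusted p = 0.114), tbx20 (1.28 ± 0.49, limma adjusted p = 0.157) and hlfb (0.84 ± 0.32, limma adjusted p = 0.157). A p above the threshold does not show that these genes were alike in both sexes.

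For LH minus FSH no gene of the set was called different between the sexes by limma (0 of 52). At an unadjusted p below 0.05 limma had 3 of the 52, against 12.1% of the 1309 genes. By edgeR on recovered reads 0 of the 52 were called, and 4 of the 1309 genes. The limits kept LH minus FSH within 1 log2 unit in each sex and so bounded this sex difference. The count of 0 was therefore shaped by the selection and is no separate finding. Of the 1309 genes 0.229% were higher and 0.0764% lower in males. The smallest p was that of tnni1c, whose LH minus FSH was 0.88 ± 0.29 in males and -0.21 ± 0.29 in females, a sex difference of 1.095 ± 0.41 (limma adjusted p = 0.322). Sptbn4a, fhdc1, tbx20 and hnf4a followed, with sex differences of 0.91 ± 0.40, 0.93 ± 0.43, 0.93 ± 0.49 and 0.71 ± 0.56.

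**Figure D4:**
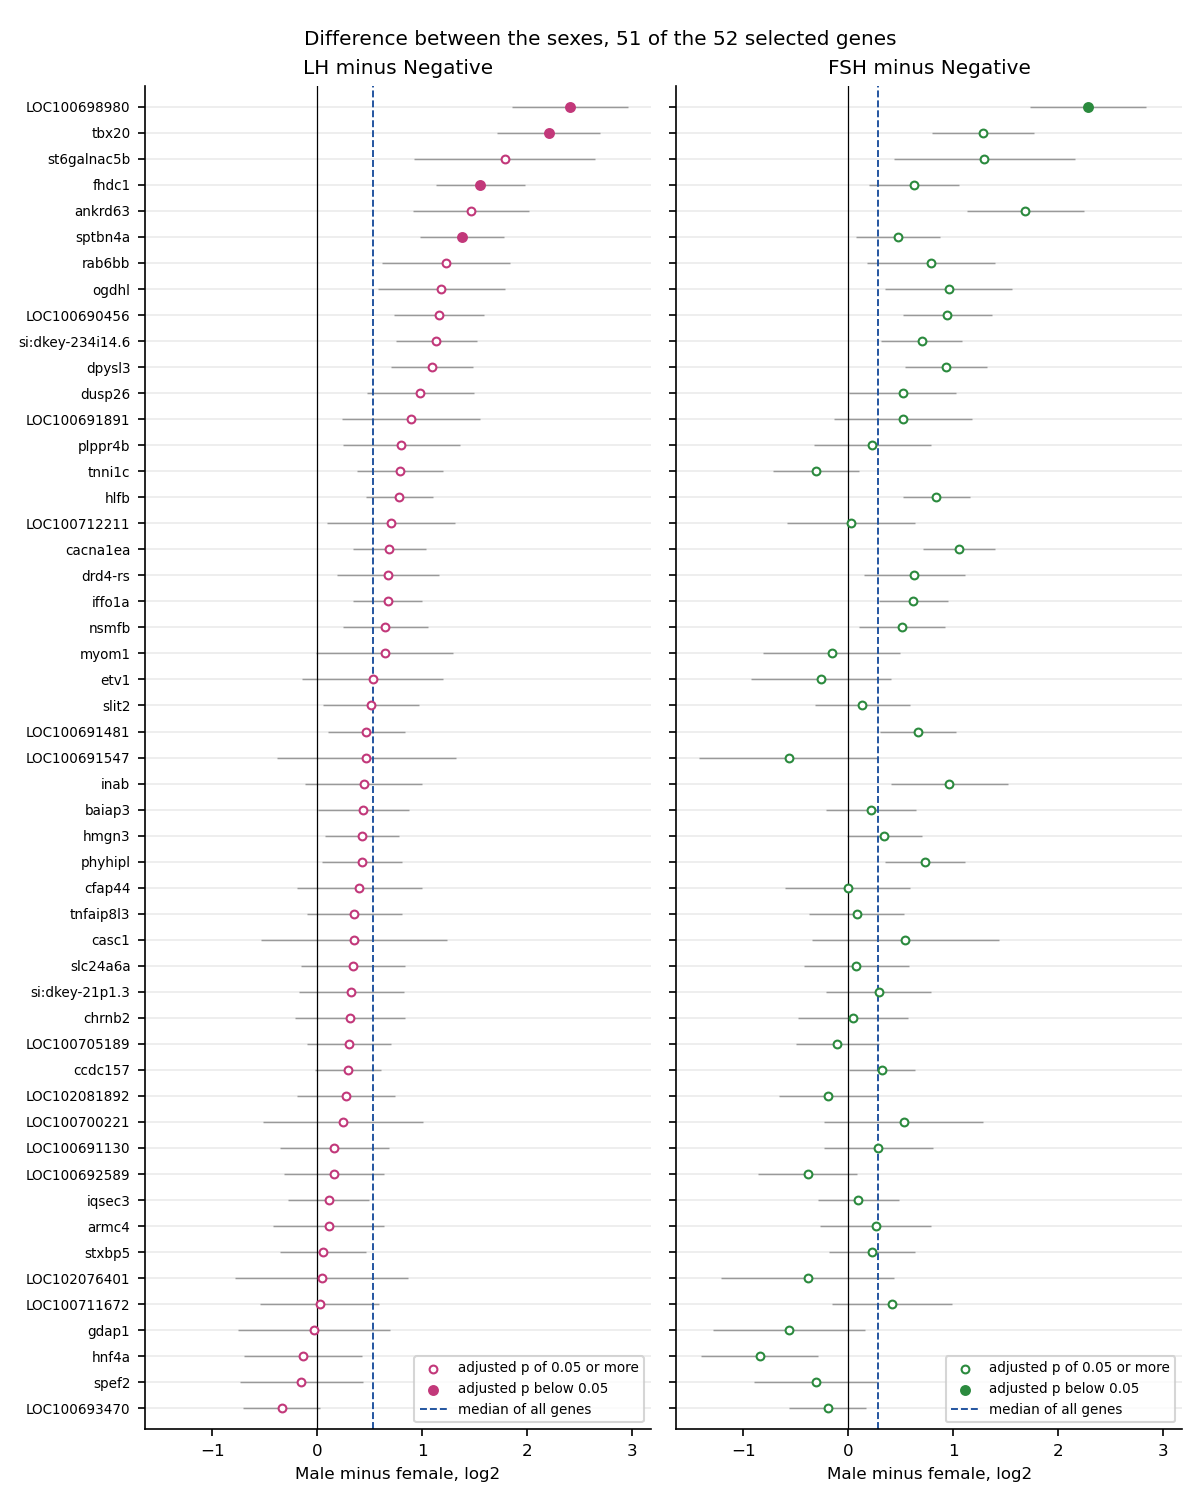
Male minus female difference (log2) in LH minus Negative (left) and FSH minus Negative (right) for 51 of the 52 genes, ± 1 SE from limma (24 libraries), with filled points at an adjusted p below 0.05; the dashed line is the median of all 1309 genes, 0.53 on the left and 0.29 on the right. On the left 4 points are filled and on the right 1, and the points lie around the dashed lines.

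The border of the set was narrow in females. Of the 1309 genes, 373 met the limits in males and 78 in females. Among the 317 that met them in males only, 271 had a female LH minus Negative difference of 1 or less, 143 had female LH and FSH levels at least 1 apart, and 29 had a female FSH minus Negative difference of 1 or less. The genes just inside were sptbn4a (female LH minus FSH of -0.990), iffo1a (female LH minus Negative of 1.010) and dpysl3 (female LH minus Negative of 1.013). Just outside were lrrc4 (female FSH minus Negative of 0.997), ppia (female LH minus Negative of 0.996) and clstn3 (female LH minus Negative of 0.995). For 25 of the 52 genes the smallest difference was below 1.2, and their distance from the limit was smaller than the median SD between libraries of 0.44 log2 units.

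Membership accordingly moved with single libraries. When one library at a time was left out, 37 to 67 genes met the limits, and the 2 extremes came from leaving out the female Negative libraries of sorts 2 and 3. Leaving out a whole sort of both sexes gave 38 to 81 genes, the highest without sort 3. Whichever library or sort was left out, 12 of the 52 genes were kept, namely hnf4a, slc24a6a, inab, ogdhl, baiap3, stxbp5, drd4-rs, fhdc1, nsmfb, LOC100691891, LOC100711672 and LOC100705189. When genes were chosen on 3 sorts and read in the remaining sort, 76.5% (sort 3) to 96.6% (sort 1) of them were higher than Negative cells in both fractions of both sexes in that sort, against 41.2% and 63.9% of all 1309 genes in the same sorts. The limits themselves held less often. In sorts 1 to 4, all 4 differences exceeded 1 for 23 of 58, 24 of 38, 15 of 81 and 18 of 55 genes. LH and FSH cells were less than 1 apart in both sexes for 29, 22, 48 and 32 of these genes. The libraries left out took part in the authors' own selection of the listed genes, so the reading is not fully separate from the choice.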

How the data were processed

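RNA of sorted LH, FSH and Negative cells was sequenced by the authors (SMARTer Stranded Total RNA-Seq Pico kit, single-end reads). The submitters' processing notes name FastQC 0.11.4, Trim Galore, STAR 2.201, HTSeq and DESeq2, and the study's methods the assembly O_niloticus_UMD_NMBU. The authors deposited 1 table of normalized reads per sex (a signal scaled by DESeq2 size factors, 24 library columns in all, 0 of them without a sample) and tables of their own fold changes and p-values, which were not used. Their tables keep only genes that they called enriched in LH or FSH over Negative cells (2392 in males, 1849 in females), so the 1309 shared genes are no sample of the transcriptome. In the male table each gene name stood 1 row below its values and was moved up. Checked against the female table over 1309 genes, the correlation of the mean log2 FSH level was 0.979 with names moved and 0.476 as deposited. Dividing each library by its smallest step gave whole numbers for 100% of values (tolerance 0.02), so read counts were recovered; size factors were 0.416 to 2.45. Counting errors are largest for genes near the floor of 3 reads per library. The p-values of the main fit rest on the spread between libraries within the 6 groups, which joins pool, sorting and library preparation. That fit has no term for a pool shared by fractions. The setting for read strand was not given in the sources used here, so a gene and an antisense partner cannot be told apart.

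Differences were computed on log2(NR + 1), which understates the changes of low genes. Sex differences were fitted with limma 3.58.1 (mean-variance trend, 6 group means, 24 libraries, R 4.3.3), with edgeR 4.0.16 (quasi-likelihood, recovered reads, deposited scaling) as an alternative, after tests on simulated data. Fractions of 1 repeat came from 1 pool, and libraries with the same replicate number in the labels were taken as 1 sort. The labels do not name the pool, so this pairing is an assumption. Correlations of same-numbered libraries' deviations were 0.0378 to 0.498 in males (median 0.231) and -0.213 to 0.212 in females (median 0.0112). The female values thus do not bear the pairing out. The fit with the sort as a block was the alternative. Other alternatives were pseudocounts of 0.5 and 5, a minimum mean of 20 NR, centring, no variance trend, limits of 0.9 and 1.1 and leaving out sorts or libraries. The promoter motif search that was planned was not run. Function lists were matched by symbol or by the study's protein names. Genes were named by fixed rules (highest level, largest smallest difference, function lists, smallest p between the sexes, nearest to the limits, one library apart, neighbours) and by role. Members, lists and roles were chosen with earlier results of these data known. Of the 52 genes, 45 matched the RefSeq annotation of that assembly (29 by gene number, 16 by symbol), and casc1, stxbp5, armc4, myom1, iqsec3 and phyhipl were among the 7 unmatched. Of the 52, 1 gene enters the counts and medians but is not reported here.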

Additional observations from a re-analysis of the deposited data

Results flagged for a closer look

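For the NR of 51 of the 52 genes, the highest and the lowest of the 4 libraries of a group were compared with the nearest other library (306 groups). The gap, as a share of the range, exceeded Dixon's 95% critical value in 13 groups, where chance alone gives about 1 in 20, or 15.3. In the male LH library of sort 1, cacna1ea (1924 NR) and drd4-rs (149.6 NR) were lower and spef2 (143 NR) higher than in the other 3. The male Negative library of sort 3 was the lowest for tnfaip8l3 (32.5 NR) and LOC100691547 (0.878 NR). Male FSH libraries stood apart as low for LOC100705189 (47.7 NR, sort 1) and dusp26 (89.9 NR, sort 1) and as high for ankrd63 (2522 NR, sort 4). Female FSH libraries were high for iqsec3 (129.7 NR, sort 3), si:dkey-234i14.6 (210.1 NR, sort 4), LOC102076401 (30.8 NR, sort 4) and etv1 (37.9 NR, sort 1), and phyhipl was high in the female LH library of sort 2 (298 NR).

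A test of the difference between the sexes passed an adjusted p of 0.05 (limma) in 5 cases. LH minus Negative was larger in males than in females for LOC100698980 by 2.41, for tbx20 by 2.21, for fhdc1 by 1.56 and for sptbn4a by 1.38 log2 units, and FSH minus Negative for LOC100698980 by 2.28 log2 units. The median of all 1309 genes was also higher in males in both contrasts, by 0.53 and 0.29. For LH minus Negative 4 of the 52 genes were thus called higher in males, against 12.5% of the 1309 genes. For FSH minus Negative it was 1 of the 52, against 1.15%. After each contrast was centred on the median of all genes, 0 of the 52 passed in either.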

How the results depend on the processing

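The number of genes with a sex difference depended on the setting, in the set and among the 1309 genes. For LH minus Negative, 12.5% of the 1309 were higher and 0.306% lower in males as reported. The share called was 18.6% with the sort as a block, 0.84% after centring and 0.611% without sort 3. For FSH minus Negative, 1.15% were higher and 0.229% lower as reported, and 3.06% were called with the block and 1.22% by edgeR. Shares for the other leave-outs are not given here. For LH minus Negative, 4 genes passed as reported, 9 with the sort as a block and 0 after centring, and leaving out a sort or a library gave 0 to 9 (0 without sort 3, 2 without sort 1, 2 without the male LH library of sort 1, 7 without the male Negative library of sort 4, 8 without the female LH library of sort 2 and 9 without the female Negative library of sort 2). For FSH minus Negative, 1 gene passed as reported, 2 with the block, 0 after centring and 0 by edgeR, and leaving out a sort or a library gave 0 to 2, with 0 without any one sort, 0 without the male FSH library of sort 2, the male Negative libraries of sorts 2 or 3, the female FSH library of sort 4 or the female Negative libraries of sorts 1 or 4, and 2 without the male Negative library of sort 4 or the female Negative library of sort 2. LH minus FSH, which the limits bounded in each sex, gave 0 throughout. The median sex difference of LH minus Negative moved to -0.0737 after centring. All 15 named sex differences kept their sign under all 35 alternatives, while tbx20 and LOC100698980 lost their LH call in 2 of them, fhdc1 in 6 and sptbn4a in 11, and LOC100698980 its FSH call in 12; si:dkey-234i14.6 gained an LH call in 10, and ankrd63 an FSH call in 2 and cacna1ea in 1. The set itself held 34 genes with a pseudocount of 5 (31 of them among the 52), 58 with 0.5, 47 with a minimum mean of 20 NR, 71 and 35 with limits of 0.9 and 1.1, and 37 to 81 with a sort or a library left out. The causes, depth among them, were not tested. The female Negative libraries held the fewest reads on listed genes (69091 to 135385).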

Other observations

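Positions were known for 45 of the 52 genes (RefSeq annotation of O_niloticus_UMD_NMBU), on 19 of 22 linkage groups, with at most 5 genes on one. Cacna1ea and si:dkey-21p1.3 were direct neighbours on linkage group 23, at 43894847 to 44022814 and 43863226 to 43894602, with 244 bases and no annotated gene between them. Male libraries of si:dkey-21p1.3 held 133, 125, 119.7 and 147 NR in LH cells and 226, 159, 273 and 182 NR in FSH cells, against 57.8, 57.3, 36.0 and 40.4 NR in Negative cells, and female libraries held 94.6, 226, 104 and 225 NR in LH cells and 125, 153, 317 and 549 NR in FSH cells, against 61.2, 42.0, 95.3 and 84.6 NR in Negative cells. Both genes were higher in all gonadotroph than in all Negative libraries of males; in females 1 Negative library of si:dkey-21p1.3 lay above the lowest LH library. LOC102076401 and LOC100691547 were neighbours on linkage group 5, at 15802924 to 15807290 and 15807924 to 15811995, with 633 bases and no annotated gene between them. Both had few reads and large differences from Negative cells, 2.33 to 3.01 and 2.59 to 3.23 log2 units. Since NR count reads per gene, a transcript that runs across 2 neighbours would add to both, which was not tested. Tbx20 and etv1 were also on 1 linkage group (11), at 32012617 to 32027563 and 32686066 to 32709141, with 21 annotated genes between them.

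The annotated span of the genes, introns included, had a median of 15577 bases for the 45 genes with a position, against 18420 bases for the 1101 genes of both tables with one and 8398.5 bases for the 29562 protein coding genes of the annotation. The set was thus no longer than the listed genes in general. The spread between libraries of 1 group (SD of log2(NR + 1), n = 4) had a median over the 52 genes of 0.50 in male LH, 0.36 in male FSH, 0.37 in female LH and 0.33 in female FSH cells, against 0.50 in male and 0.54 in female Negative cells.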
